A study of Bos taurus with 12 samples.

Results

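The genes described here code for the proteins of the small nuclear ribonucleoprotein particles (snRNP) and for their LSM and SF3 relatives. They were chosen by symbol, as every gene of the count files whose bovine RefSeq symbol begins with SNRP, SF3A or SF3B, or is LSM followed by a number. This gave 32 of 30336 genes, made up of 8 genes of the Sm ring, 4 of proteins specific to the U1 or U2 particle, 9 of the SF3a and SF3b complexes and 11 of the LSM family. Liver of Holstein heifer calves was taken by biopsy at 4 d of age and its messenger RNA was sequenced, in 6 libraries from calves of cows on a control diet (CON) and 6 from calves of cows on that diet plus methionine protected from the rumen by ethyl cellulose (MET). The cows were on these diets for the last 28 d before calving, so that the diet contrast lies in the dams. All calves were managed alike after birth, but each was offered first colostrum from its own dam, so the contrast includes that colostrum. The calves were part of a larger cohort.

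The spliceosome removes introns from newly made transcripts. Each of its U1, U2, U4 and U5 RNAs is wrapped by a ring of Sm proteins, a ring of LSM proteins holds the end of the U6 RNA, U1 marks the start of an intron, and U2 together with SF3a and SF3b marks the branch point near its end. A closely related LSM ring sits in the cytoplasm and takes part in the decay of messenger RNA, while LSM10 and LSM11 belong to the U7 particle, which trims the ends of histone messages. LSM12 carries the family name but is not known as a core part of the spliceosome. Methionine is the source of the methyl groups that are placed on arginines of several Sm proteins before the rings are assembled, which is background to the diet contrast and was not measured here.

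Each library held 8277789 to 10397604 reads counted on genes, of which the members took 0.102 to 0.126% in CON and 0.11 to 0.147% in MET. The count files of CON replicates 1 and 4 held nearly the same values (chi-square per gene 1.333), and so did those of MET replicates 1 and 3 (1.241), against 25.12 to 132.9 for the 64 remaining pairs of libraries. Each such pair was therefore counted as 1 sample, which left 5 samples per diet, and every call made over the 12 libraries is given with its value over the 10 samples. Where values per sample are listed, CON values run through replicates 1 with 4, 2, 3, 5 and 6, and MET values through replicates 1 with 3, 2, 4, 5 and 6. The first index of the libraries differed between the diets and was shared within each, so that an effect of index and one of diet cannot be told apart. In bulk tissue, fewer cells of a type and less RNA per cell cannot be told apart either.

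All 32 members passed the filter on low counts, with 18 reads of LSM11 as the lowest count in any library. Levels were compared between genes as CPM (counts scaled to a common library total after TMM normalization, edgeR's scaling between libraries) per kilobase of exon, averaged over the 10 samples. SNRPD3, one of the Sm proteins, had the highest level of all members (189 CPM per kb), and LSM11, the U7 ring protein, had the lowest (0.503). The 7 proteins of the common Sm ring are held in equal numbers in the particle, but the levels of their messages were far apart. SNRPD2 followed SNRPD3 at 58.4 CPM per kb, then SNRPD1 at 46, SNRPB at 34.5, SNRPG at 20, SNRPE at 18.6 and SNRPF at 15.9. SNRPD3 was the highest of the 7 in each of the 10 samples, and its level was 8.62 to 19 times that of the lowest, which was SNRPF in 7 samples, SNRPE in 2 and SNRPG in 1. The neighbours SNRPG, SNRPE and SNRPF overlapped between samples.

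**Figure D1:**
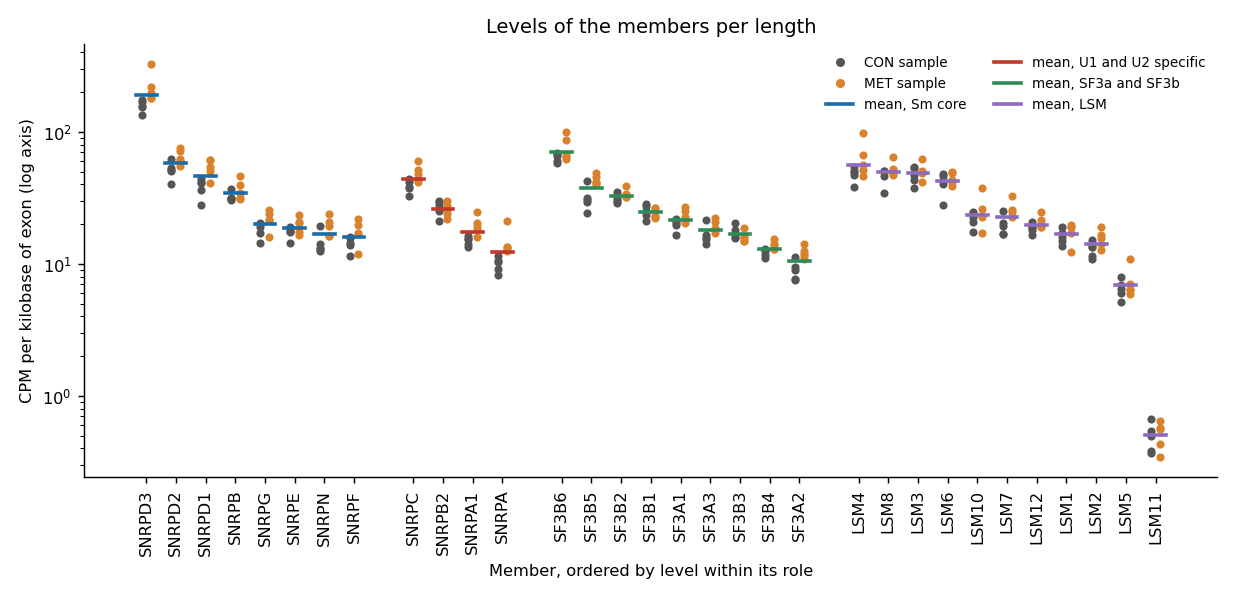
Level of each of the 32 members in CPM per kilobase of exon (log axis) by role, with a grey point for each of 5 CON samples, an orange point for each of 5 MET samples and a bar for the mean of the 10. SNRPD3 stands highest at a mean of 189 and LSM11 lowest at 0.503.

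Among the U1 and U2 proteins, the U1 zinc finger protein SNRPC was highest (43.9 CPM per kb) and the U1 stem-loop binder SNRPA was lowest (12.3). Within SF3a and SF3b the order ran from SF3B6, which contacts the branch point (70 CPM per kb), to SF3A2 (10.6). SF3B1, the large scaffold of SF3b, took the most reads of any member (212 ± 24.4 CPM in CON and 203 ± 17.6 in MET, SD, n = 5), but its 8413 exonic bases put it at 24.6 CPM per kb. In the LSM family LSM4, LSM8, LSM3 and LSM6 stood between 42.8 and 55.9 CPM per kb and LSM5 at 6.93. The low level of LSM11 appeared in every sample, with CPM of 3.97, 2.26, 3.2, 2.19 and 2.91 in CON and 2.02, 3.32, 3.8, 2.57 and 3.4 in MET, and the diets overlapped fully.

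MET and CON were compared gene by gene with edgeR's quasi-likelihood test and Benjamini-Hochberg adjustment over the 13212 genes that passed the filter (FDR), with a threshold of 0.10. Over the 12 libraries 4 members were higher in MET calves and 0 were lower. They were SF3B5, SF3A2, SNRPA and SNRPA1, which are also on the list of changed genes that was drawn up from the same libraries, as is SNRPD1. Of all genes tested, 2.09% were called higher in MET and 2.32% lower. Over the 10 samples no member passed, and the share of all genes that passed was 0%, with a lowest FDR of 0.155. Leaving out any one of CON replicates 1, 3 and 4 or MET replicates 1, 3, 4 and 6 from the 12 also left 0 members called, with 11 to 180 of all genes called higher. At an unadjusted p of at most 0.05 in the fit of 10 samples, 10 members were higher in MET and 0 were lower, against 7.86% of all genes higher and 8.50% lower. With DESeq2, 7 members passed over the 12 libraries (4.79% of all genes were called higher) and 4 over the 10 samples (2.23%), and SF3B5, SF3A2, SNRPA and SNRPD1 were in both. On simulated data with 200 changed genes, DESeq2 over 10 samples called 53 unchanged genes beside 193 changed ones, against 16 beside 188 with edgeR. Over 12 simulated libraries it called 33 beside 196, against 15 beside 190 with edgeR. The DESeq2 calls thus hold more false ones than the edgeR calls would. The log2 fold change was above 0 in 28 of the 32 members (87.5%), against 49.6% of all genes. Its median over the members was 0.21, against -0.0031 over all genes. The 4 members below 0 were SF3B1 (-0.10), SF3B3 (-0.10), LSM11 (-0.11) and SNRPB2 (-0.037), and over the 10 samples LSM11 was at 0.025.

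**Figure D2:**
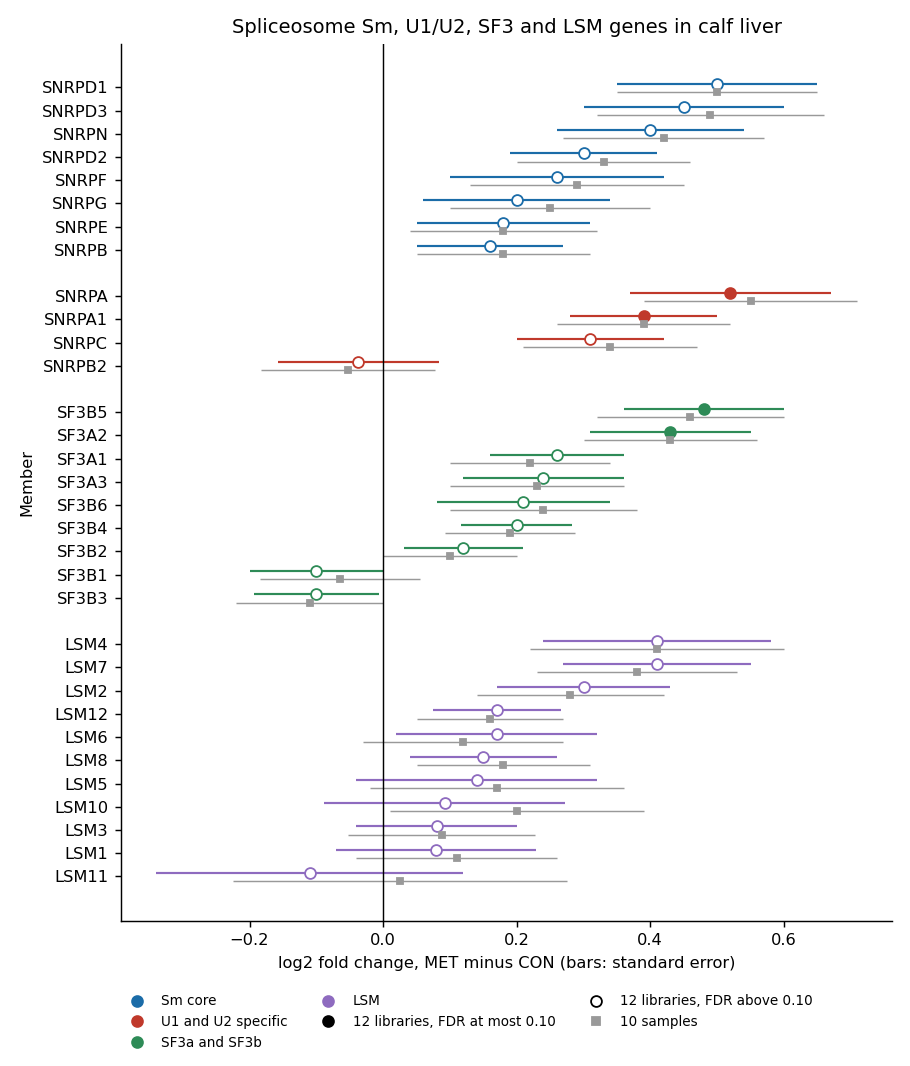
Fitted log2 fold change (MET minus CON) of the 32 members with its standard error, by role, over 12 libraries (circles, filled where FDR was at most 0.10) and over 10 samples (grey squares). Filled circles are SNRPA, SNRPA1, SF3B5 and SF3A2, and 28 of the 32 circles lie right of 0.

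The genes of proteins specific to the U1 and U2 particles held a called member of each particle, where 2.09% of all genes were called higher. They also held, in SNRPB2, the member closest to no difference over the 12 libraries, while over the 10 samples LSM11 was closest. SNRPA (a U1 protein that holds a stem-loop of the U1 RNA) lies on chromosome 18 from 50299426 to 50310257 on the plus strand of UMD 3.1.1. Its CPM were 12, 13.2, 9.49, 10.5 and 12.1 in CON and 14.9, 14.4, 24.2, 15.4 and 15.6 in MET. Each MET sample lay above each CON sample, which 1.94% of all genes did, and MET replicate 4 lay far above the other four. SNRPA rose by 0.52 on the log2 scale (SE 0.15, edgeR FDR 0.0869) over the 12 libraries and was at 0.55 (FDR 0.18) over the 10 samples. Without MET replicate 4 it was at 0.38 with an FDR of 0.117. The difference over the 10 samples had an exact two-sided permutation p of 0.00794, the smallest that 5 against 5 can give.

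SNRPA1 (chromosome 21, 29683789 to 29696818, plus strand) forms with SNRPB2 (chromosome 13, 10734320 to 10747954, plus strand) a pair that sits on one stem-loop of the U2 RNA. The CPM of SNRPA1 were 16, 18.6, 15.4, 17.6 and 17.7 in CON and 20.8, 18.1, 28.2, 21.9 and 23.3 in MET. Here 4 of the 5 MET samples lay above all CON samples, and MET replicate 2 lay within their range. SNRPA1 rose by 0.39 over the 12 libraries (SE 0.11, edgeR FDR 0.0905), with an FDR of 0.193 over the 10 samples, and without MET replicate 4 it was at 0.31 with an FDR of 0.137. The CPM of SNRPB2 were 24.8, 34.9, 33.3, 29.6 and 35.3 in CON and 25.9, 32.5, 35.5, 28.2 and 30.2 in MET, and these ranges nearly coincide. Its log2 fold change was -0.037 (SE 0.12, edgeR FDR 0.9).

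The ratio of SNRPA1 to SNRPB2, 2 messages of nearly the same exonic length (1138 and 1184 bases), was 0.644, 0.532, 0.464, 0.595 and 0.503 in the CON samples and 0.803, 0.556, 0.795, 0.778 and 0.771 in the MET samples. It averaged 0.548 ± 0.072 in CON and 0.741 ± 0.104 in MET (SD, n = 5), and only MET replicate 2 fell within the CON range. In the Sm ring, the ratio of SNRPD3 to its ring partner SNRPB was 2.68, 2.84, 2.33, 2.55 and 2.53 in CON and 2.99, 3.03, 3.76, 3.1 and 2.94 in MET, and the 2 sets did not overlap. These 2 messages differ in exonic length, with 591 bases for SNRPD3 and 1113 for SNRPB. The ratios of SNRPD1 to SNRPD2 (0.786 to 1.49 in CON and 1.08 to 1.28 in MET), of SNRPN to SNRPB (0.45 to 0.725 and 0.531 to 0.731) and of LSM1, of the cytoplasmic ring, to LSM8, which takes its place in the nuclear ring (0.443 to 0.813 and 0.402 to 0.635), overlapped between the diets. The ratios were chosen after the values had been seen, and no test was made on them.

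**Figure D3:**
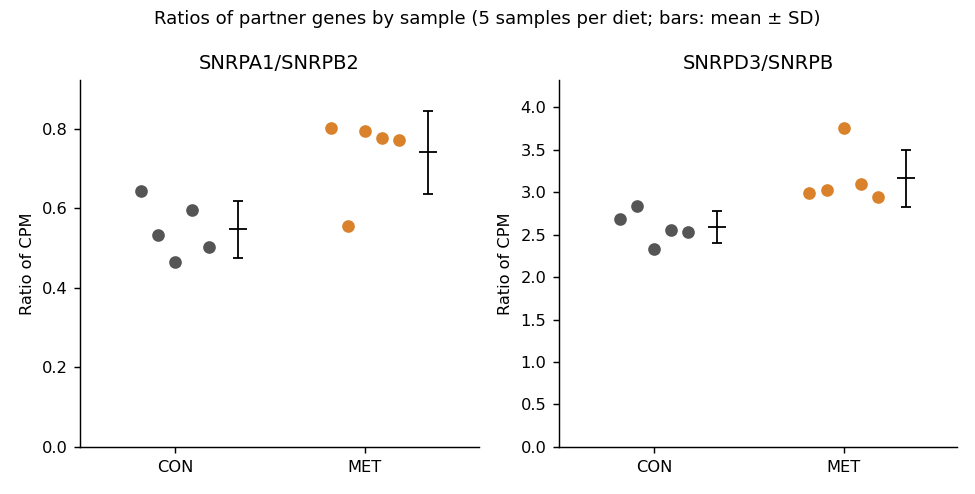
Ratio of CPM of SNRPA1 to SNRPB2 (left) and of SNRPD3 to SNRPB (right) in each of 5 CON and 5 MET samples, with mean ± SD. In the left panel 4 MET points lie above all CON points and 1 (0.556) lies among them, and in the right panel the MET points start at 2.94, above the highest CON point at 2.84.

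SNRPC (chromosome 23, 8726520 to 8737287, minus strand), which helps U1 to grip the start of the intron, had CPM of 32.3, 37.8, 28.1, 36.1 and 33.2 in CON and 36.2, 41.8, 52.1, 37.4 and 44.4 in MET. In MET 3 samples lay above all CON samples, and the FDR was not passed (log2 fold change 0.31, edgeR FDR 0.147 over 12 libraries and 0.234 over 10 samples).

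In SF3a and SF3b 7 of 9 genes had a log2 fold change above 0 (49.6% of all genes did), with a median of 0.21. In each complex 1 gene was called, where 2.09% of all genes were called higher. SF3B5 codes for one of the smallest proteins of SF3b and lies on chromosome 9 from 82549520 to 82550245 on the minus strand. Its CPM were 18.4, 26.4, 15.3, 19.6 and 19 in CON and 28.3, 25.9, 30.6, 25.5 and 25.2 in MET. All MET samples lay above 4 of the CON samples, and CON replicate 2 lay within the MET range. SF3B5 rose by 0.48 (SE 0.12, edgeR FDR 0.0724 over 12 libraries), with an FDR of 0.183 over the 10 samples. It kept an FDR of at most 0.10 in 4 of the 12 fits that left out 1 library, the most of the 4 called members.

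SF3A2 (chromosome 7, 22687278 to 22696290, plus strand) is a zinc finger subunit of SF3a. Its CPM were 13.4, 11.2, 11.4, 14 and 16.7 in CON and 17.7, 18.5, 21, 16.2 and 16.9 in MET, and 4 of the 5 MET samples lay above all CON samples. SF3A2 rose by 0.43 (SE 0.12, edgeR FDR 0.0835 over 12 libraries), with an FDR of 0.185 over the 10 samples. Its 2 partners in SF3a were at 0.26 (SF3A1, FDR 0.18) and 0.24 (SF3A3, FDR 0.254). Of the 6 genes of SF3b, SF3B4 was at 0.20 (FDR 0.196), SF3B6 at 0.21 (FDR 0.379) and SF3B2 at 0.12 (FDR 0.456), and the large subunits SF3B1 and SF3B3 were both at -0.10 (FDR 0.608 and 0.564). SF3B6 had CPM of 46.9, 50.7, 53.3, 53.7 and 45.4 in CON and 48.3, 49.8, 77.5, 52.4 and 66.9 in MET, with only MET replicates 4 and 6 above the CON range. Its log2 fold change was 0.10 without MET replicate 4 and 0.025 with a correction for gene length.

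All 8 genes of the Sm ring had a log2 fold change above 0 (49.6% of all genes did), with a median of 0.28, and none passed the FDR. Corrected for gene length as described with the lengths of the genes, the median was 0.11 over 12 libraries and 0.14 over 10 samples, where 7 of 8 lay above 0. SNRPD1 (chromosome 24, 34993826 to 35004744, minus strand) came closest, with an edgeR FDR of 0.101 and a log2 fold change of 0.50 (SE 0.15). Its CPM were 21.6, 28.3, 32.3, 31.6 and 34 in CON and 31.9, 39.2, 47.8, 42 and 47.6 in MET, so that 4 of the 5 MET samples lay above all CON samples. SNRPD3 (chromosome 17, 73479562 to 73495990, minus strand) had CPM of 92, 99.9, 79.8, 90.5 and 103 in CON and 106, 116, 194, 107 and 130 in MET. It was the second member whose diets did not overlap, beside SNRPA, with an edgeR FDR of 0.127 and a log2 fold change of 0.45 (SE 0.15) that was 0.28 without MET replicate 4.

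SNRPD2 (chromosome 18, 53681069 to 53683928, minus strand), the ring partner of SNRPD1, had CPM of 27.5, 26.8, 21.6, 28.4 and 33 in CON and 29.5, 32.1, 40.3, 32.9 and 38.4 in MET, and the diets overlapped (edgeR FDR 0.169). SNRPF had CPM of 15, 18, 20.4, 20.8 and 18.7 in CON and 15.5, 25.5, 22.4, 21.7 and 28.5 in MET. In MET 4 samples lay above all CON samples and replicate 1 with 3 lay near the lowest CON sample (edgeR FDR 0.378). SNRPE and SNRPG were at 0.18 and 0.20 with edgeR FDR of 0.461 and 0.432, and at -0.044 and 0.02 with the correction for gene length.

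SNRPB and SNRPN code for near-identical proteins that can take the same place in the ring, and SNRPN is an imprinted gene in mammals. SNRPB (chromosome 13, 53134558 to 53143634, plus strand) had CPM of 34.3, 35.2, 34.2, 35.4 and 40.8 in CON and 35.4, 38.4, 51.6, 34.6 and 44.3 in MET, and SNRPN (chromosome 21, 2563 to 25936, minus strand) had 17.3, 25.5, 16.5, 17.1 and 18.4 in CON and 21.4, 21.3, 27.4, 25.3 and 31.2 in MET. The diets overlapped for both. The log2 fold change was 0.16 for SNRPB (edgeR FDR 0.436) and 0.40 for SNRPN (edgeR FDR 0.133). That of SNRPB was 0.075 without MET replicate 4 and 0.028 with the correction for gene length. Reads that matched both genes were not counted, and 32.9% of the exonic bases of SNRPN (431 bases) are shared on the same strand with SNURF, where no read could be counted, so that the level of SNRPN is uncertain. SNRPB shares 108 exonic bases and LSM4 173 with a gene on the opposite strand, and the counting was by strand.

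**Figure D4:**
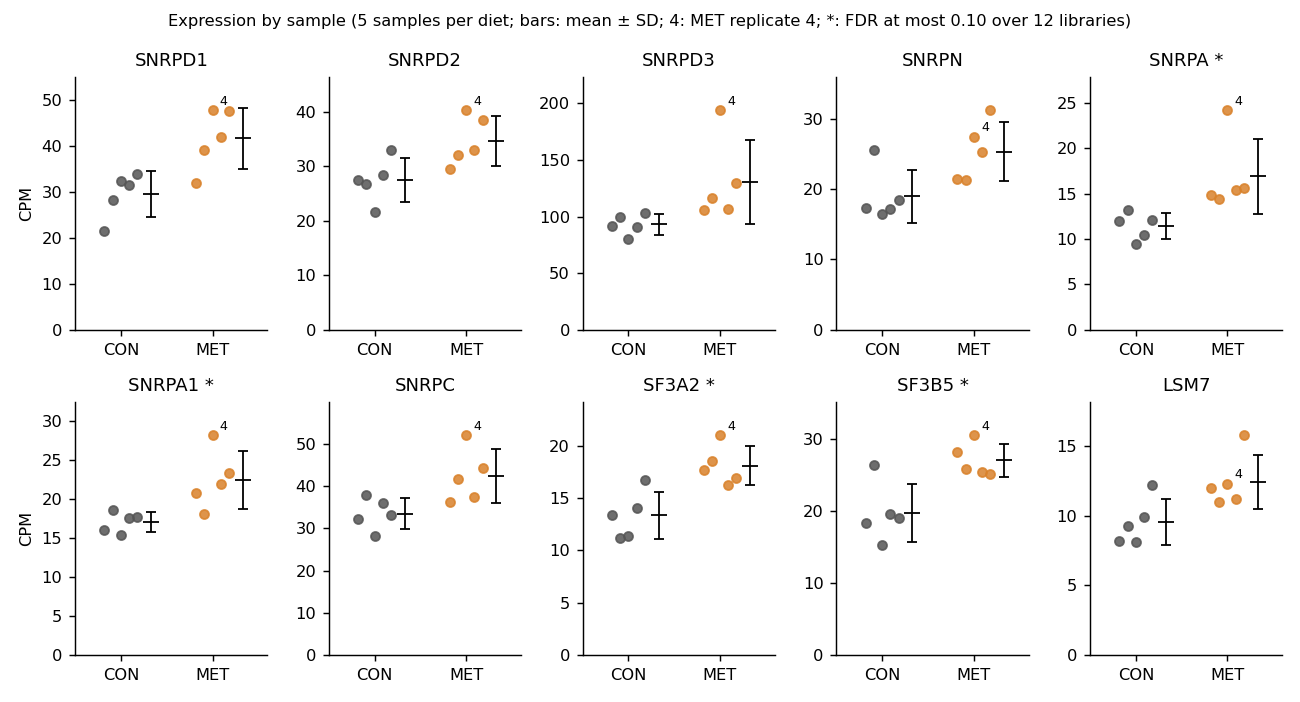
CPM in each of 5 CON and 5 MET samples, with mean ± SD, for the 10 members with p of at most 0.05 before adjustment in the 10-sample fit, a star marking the 4 with an FDR of at most 0.10 over 12 libraries and the digit 4 marking MET replicate 4. SNRPA and SNRPD3 show no overlap between the diets, and in both MET replicate 4 (24.2 and 194) lies apart from the other MET samples.

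In the LSM family 10 of 11 genes had a log2 fold change above 0 (49.6% of all genes did), with a median of 0.15, and none passed the FDR. With a correction for gene length, described with the lengths of the genes, this median was 0.0024 over 12 libraries and 0.062 over 10 samples, where 7 of 11 genes lay above 0. LSM7 (chromosome 7, 22515551 to 22537819, plus strand), which lies 149458 bases from SF3A2, had CPM of 8.19, 9.3, 8.12, 9.9 and 12.2 in CON and 12, 11, 12.3, 11.2 and 15.8 in MET. Only CON replicate 6 reached the MET range, and the log2 fold change was 0.41 (SE 0.14, edgeR FDR 0.14 over 12 libraries and 0.258 over 10 samples). LSM4 had CPM of 51.8, 48.6, 39.5, 56.2 and 52.4 in CON and 69.2, 58.1, 102, 48.1 and 53.2 in MET, with the same log2 fold change of 0.41 (edgeR FDR 0.182), which was 0.25 without MET replicate 4. LSM2 was at 0.30 (edgeR FDR 0.229), and the remaining 8, LSM12 included, lay between -0.11 and 0.17. LSM1, which is found in the cytoplasmic ring only, was at 0.079 and LSM8, found in the nuclear ring only, at 0.15. Neither passed the threshold (edgeR FDR 0.805 and 0.485).

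MET replicate 4 held the highest value of the 10 samples in 18 of the 32 members and MET replicate 6 in 8. CON replicate 3 held the lowest value in 13 and CON replicate 1 with 4 in 9. The median deviation of the members from their mean over the 10 samples, in log2 CPM, was 0.33 in MET replicate 4, 0.22 in replicate 6, 0.071 in replicate 2, 0.077 in replicate 5 and -0.05 in replicate 1 with 3. In CON it was -0.20 in replicate 1 with 4, -0.067 in replicate 2, -0.19 in replicate 3, -0.086 in replicate 5 and -0.013 in replicate 6. The diets overlapped only in that MET replicate 1 with 3 lay below CON replicate 6. Short genes as a whole also differed between samples. The median deviation of genes under 1000 exonic bases, minus that of genes of 2000 or more, was 0.41 in MET replicate 6. It was 0.12 in MET replicates 2 and 4, -0.019 in replicate 5 and -0.021 in replicate 1 with 3. For CON it was -0.20 in replicate 1 with 4, 0.079 in replicate 2, -0.27 in replicate 3, -0.093 in replicate 5 and -0.15 in replicate 6. Without MET replicate 4, no member passed the FDR, 0.984% of all genes were called higher, and the members' median log2 fold change was 0.18.

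Gene length moved with the fold change across the whole table. The median log2 fold change of all genes tested was 0.20 in the 1037 genes with under 1000 exonic bases, 0.096 in the 3158 genes with 1000 to 1999 and -0.051 in the 9017 longer ones. The members are short, with a median of 1075 exonic bases against 2807 for all genes tested. Their own medians in these classes were 0.25 (14 members), 0.24 (13 members) and -0.10 (5 members), so that the short members lay near other short genes and those of 1000 to 1999 bases lay above theirs. Genes are not independent replicates, and as a description across them the correlation of log2 fold change with log2 length was -0.538 (Pearson) and -0.359 (Spearman) over the 32 members, and -0.264 and -0.312 over the 13212 genes tested. Depth and library are shared by all these points.

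When a smooth trend on length was removed from each sample, the members' median log2 fold change was 0.13 over 12 libraries and 0.11 over 10 samples, against 0.00083 and 0.004 for all genes. No member then passed the FDR in either fit, and 0.817% of all genes were called higher over 12 libraries and 0 genes over 10 samples. The median was 0.21 for the U1 and U2 proteins and 0.13 for SF3a and SF3b over 12 libraries. SNRPA was at 0.39 (edgeR FDR 0.176 over 12 libraries), SF3A2 at 0.34 (0.158), SF3B5 at 0.31 (0.198) and SNRPA1 at 0.27 (0.202). Among members that had not been called, SNRPD1 was at 0.32, SNRPD3 at 0.24, LSM7 at 0.18, SNRPC at 0.15 and SNRPD2 at 0.081. At p of at most 0.05 without adjustment in the 10 samples, 4 members were higher in MET (SNRPA, SF3A2, SNRPA1 and SNRPN), against 6.63% of all genes. LSM1, LSM3, LSM6, LSM8, LSM10 and SNRPE then lay below 0 over 12 libraries, while SF3B1 and LSM11 lay above it, and only SF3B3 and SNRPB2 were below 0 both with and without the correction. The part of gene length in the diet difference of the members was not tested.

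**Figure D5:**
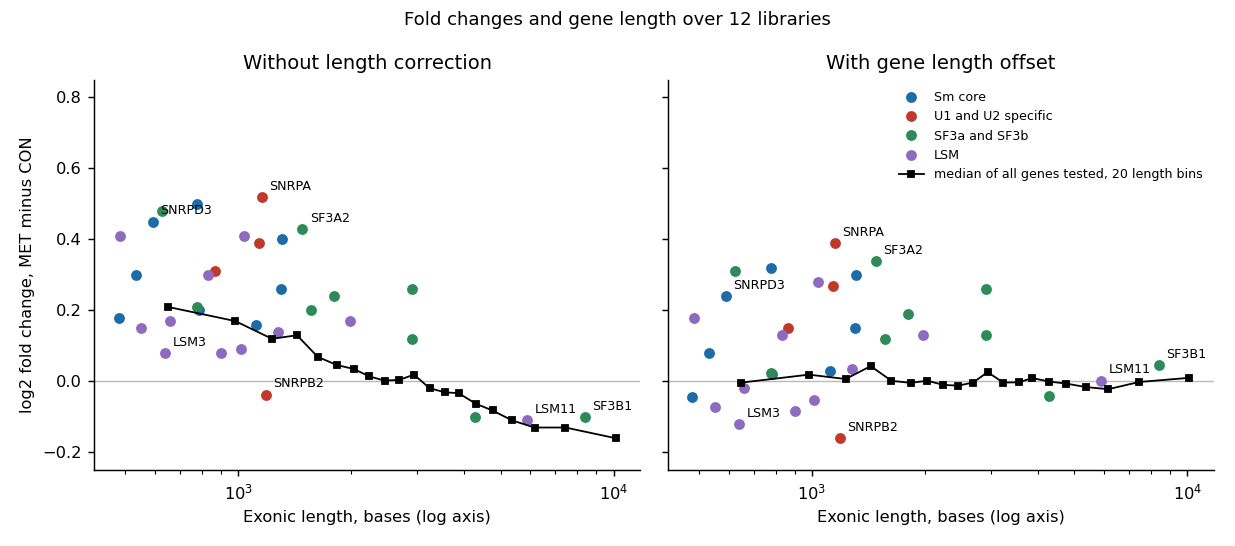
Log2 fold change (MET minus CON, 12 libraries) of the 32 members against exonic length (log axis), without (left) and with (right) a gene length offset, with black squares for the median of all genes tested in 20 length bins. On the left the bin medians run from 0.21 in the shortest bin to -0.16 in the longest, and on the right they lie near 0 while SNRPA (0.39) and SF3A2 (0.34) are the highest members.

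Outside the members, 98 further genes of splicing and snRNP biology from 8 lists were tested, and 6 were higher in MET over the 12 libraries and 0 were lower, beside 2.09% and 2.32% of all genes. None of them passed over the 10 samples, where 13 were higher and 1 was lower at an unadjusted p of at most 0.05, beside 7.86% and 8.50% of all genes. The log2 fold change was above 0 in 66 of the 98, beside 49.6% of all genes. Counts above 0 by list were 17 of 20 for other snRNP proteins, 6 of 8 for recognition of the branch point and 3′ splice site, 11 of 15 for the PRP19 complex and its relatives, 13 of 17 for assembly and arginine methylation of the Sm ring, 7 of 12 for SR proteins, 4 of 8 for the minor spliceosome, 4 of 10 for decay partners of the LSM1-7 ring and 4 of 8 for U7 and histone message partners.

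The called genes came 1 each from 6 of these lists. SUGP1, a partner of SF3b at the branch point, was at 23.8 ± 1.74 CPM in CON and 34.7 ± 4.51 in MET (SD, n = 5) and rose by 0.51 (edgeR FDR 0.0431 over 12 libraries and 0.155 over 10 samples). PPIH, a cyclophilin of the U4/U6 particle, rose by 0.40 (edgeR FDR 0.0846 and 0.175), and ISY1, a factor of the catalytic spliceosome, by 0.28 (edgeR FDR 0.0869 and 0.183). SYMPK, a scaffold of 3′ end processing, rose by 0.37 (edgeR FDR 0.0804 and 0.187). For these 4 genes, and for 5 further genes of the lists that were not called, all MET samples lay above all CON samples, as in 1.94% of all genes. SNRNP25, a protein of the minor U11 particle, rose by 0.72 (edgeR FDR 0.0766 and 0.174), and GEMIN2, which binds the Sm proteins during assembly of the ring, by 0.74 (edgeR FDR 0.0995 and 0.237), both with overlap.

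Markers of some cell types differed between the diets over the 12 libraries, where 2.09% of all genes were called higher and 2.32% lower. All 9 macrophage markers had a log2 fold change above 0 and 3 were called higher (CD14, C1QB and C1QC), and their summed level was 1434 to 1891 CPM in CON and 1948 to 2185 in MET. All 10 markers of dividing cells were below 0 and 2 were called lower (CCNB1 and CDK1), with summed levels of 40.1 to 125 CPM in CON and 24.6 to 46.8 in MET. Of the 8 hepatocyte markers 5 were below 0 and APOB was called lower, with sums of 129395 to 174640 in CON and 107532 to 133682 in MET. Sums of stellate cell or fibroblast markers were 653 to 988 in CON and 497 to 873 in MET, with LUM called lower, and those of cholangiocytes were 50.8 to 78.1 and 30.5 to 67.8, with CFTR called lower. Lymphocyte (16 to 28.7 and 17.8 to 32), endothelial (295 to 494 and 274 to 460) and erythroid sums (7.64 to 964 and 57.4 to 461) overlapped, with no marker called. Only 5 of 9 lymphocyte, 2 of 9 erythroid and 4 of 5 cholangiocyte markers passed the filter on low counts and were tested. With the gene length offset over 12 libraries, 1 macrophage marker was called higher and 1 marker of dividing cells lower. No hepatocyte, stellate cell or fibroblast, or cholangiocyte marker was called then, and over all genes 108 were called higher and 145 lower. With that offset over 10 samples, 8 of 9 macrophage markers and 0 of 10 markers of dividing cells lay above 0. No marker passed the edgeR FDR over the 10 samples, where no gene did, and no marker was at 0 in every library. The part of these cell types in the values of the members was not tested.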

How the data were processed

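The authors trimmed the single-end reads of stranded, polyadenylated libraries run on 1 lane, aligned them with STAR 2.5.3a to UMD 3.1.1, a bovine assembly, and counted them per RefSeq gene with featureCounts of Subread 1.5.2. The deposited values are raw counts per gene and library, by Entrez gene ID, without normalization. Counting was by strand, and a read with several matches or several genes was not counted, which lowers the counts of genes with near copies such as processed pseudogenes. Chromosomes, positions and exonic lengths are those of the count files. Symbols came from a RefSeq table of a later assembly and matched 25105 of 30336 IDs. Protein, promoter and genome sequences were not used here, so that no sequence is printed, no motif was searched and no correction for GC content was made.

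Each library was assigned to its diet and replicate by its title. Low genes were removed with the default filter of edgeR (minimum count 10, minimum total 15), TMM factors were computed, and diets were compared with edgeR 4.0.16 (quasi-likelihood test, diet as the sole term, R 4.3.3) over the 12 libraries, as in the study, with a threshold of FDR at most 0.10. The fit was repeated over 10 samples with the reads of each near-identical pair summed. A library pair was called near-identical when chi-square per gene was under 2. The CPM of a pair were averaged before means and SD were taken (n = 5 per diet). Single genes were compared by exact two-sided permutation over the 252 arrangements of 10 samples or the 924 of 12 libraries, of log2 CPM (prior count 2). A floor of 3 reads equals 0.289 to 0.362 CPM and covers counting error alone, because the reads carry no molecular identifiers.

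The members and gene lists were chosen with earlier results of these data known. Members given with values per sample were those with an FDR of at most 0.10 over 12 libraries, those with an unadjusted p of at most 0.05 over 10 samples, the highest and lowest per kilobase in each role and SNRPN beside SNRPB, and SNRPB2 was added after its values had been seen. From each further list at most 3 called genes were named, and the called cell type markers were added. Alternatives were RLE factors, library size only, upper quartile factors, no filter, DESeq2 1.42.0, voom of limma 3.58.1, robust estimation, an offset for gene length (smooth trend of log2 expression on log2 length in every sample, span 0.5), a block on replicate number and each library left out. DESeq2 over the 10 samples and the ratios of partner genes were added after the data had been seen. The steps were tested on simulated data.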

Additional observations from a re-analysis of the deposited data

Results flagged for a closer look

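For the 15 members chosen by the rule for values per sample, which leaves out SNRPB2, each diet was searched for 1 sample far from the others by Dixon's test at the 95% level, in 30 groups of 5 samples. Chance alone flags about 1 in 20 groups, and 5 were found. SNRPA was at 24.2 CPM in MET replicate 4, against 14.4 to 15.6 in the other MET samples. SNRPD3 was at 194 CPM in the same sample, against 106 to 130. LSM7 was at 15.8 CPM in MET replicate 6, against 11 to 12.3. In CON, SNRPB was at 40.8 CPM in replicate 6, against 34.2 to 35.4, and SNRPN was at 25.5 CPM in replicate 2, against 16.5 to 18.4.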

How the results depend on the processing

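The number of members higher in MET was 4 over the 12 libraries. It was 0 with the near-identical library pairs summed, 1 with library size only, 0 with every gene with a read, 7 with DESeq2, and 0 with the gene length offset over 12 libraries or 10 samples. Leaving out 1 library at a time gave 0 to 4, with 0 without CON replicate 1, 3 or 4 and without MET replicate 1, 3, 4 or 6. No alternative called a member lower. With RLE or upper quartile factors, voom and robust estimation the count was 5, 4, 3 and 5. Over all genes 291, 265, 261 and 281 were called higher in these 4 fits. Over all genes the counts higher and lower in MET, 276 and 307, became 0 and 0 over the 10 samples (295 and 329 with DESeq2, which called 4 members there), 71 and 36 with library size only, 122 and 116 with every gene with a read, 633 and 681 with DESeq2, 108 and 145 with the length offset, and 0 and 0 with that offset over the 10 samples. Leaving out 1 library gave 11 to 273 higher and 15 to 291 lower, with the fewest without CON replicate 1 or 4, which form one near-identical pair. The 6 further splicing genes called higher became 0 over the 10 samples, and with the length offset 3 were called, SUGP1 and SYMPK of the 6 and PUF60. The members' median log2 fold change lay between 0.11 and 0.25 in every fit, and 24 to 30 of the 32 members were above 0.

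The replicate block, for libraries of the same number in both diets, left 0 members and, over all genes, 0 higher and 6 lower. The labels do not tie a number to a shared animal, litter or day, and the correlations of same-numbered libraries after removal of the group means were 0.148, 0.0369, -0.132, -0.0113, -0.104 and -0.19, so that the samples share only a number.

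For the named members, the 4 calls were lost in most other fits (65 values in all), while members that had missed the threshold were called in 8 instances. Precision is limited by 5 samples per diet and, for LSM11, by as few as 18 reads in a library.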
